A study of Arabidopsis thaliana with 8 samples.

Results

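Arabinogalactan proteins (AGPs) are cell-surface proteoglycans of plants, with short protein backbones rich in hydroxyproline that carry large branched arabinogalactan chains. Many are tied to the outer face of the plasma membrane by a lipid (GPI) anchor, and they have been linked to cell expansion, cell-to-cell signalling and reproduction. The classical members have a long proline-rich backbone, whereas the arabinogalactan (AG) peptides have a very short one. The 10 genes described here were the probes whose sequence accession led to the loci of AGP1, AGP2, AGP3, AGP4, AGP5, AGP7, AGP9, AGP10, AGP12 and AGP14, out of 30 loci with an AGP symbol and of 22668 genes tested. The first 8 encode classical AGPs, and AGP12 and AGP14 encode AG peptides. They were chosen by these arrays' own signals, for a rise in as1-1 mutants that needs TFL2, so their as1-1 effects in plants with and without TFL2 are descriptions and carry no test. All 10 passed the filter on dim probes.

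The measurements came from 8 one-colour (Cy3) microarrays of Arabidopsis thaliana (ecotype Col-0), each of whole seedlings at 12 days of age. In every group they were raised at 22 °C on MS medium in days of 16 h light and 8 h dark, and the labels gave no other treatment. The 4 groups of 2 arrays each were the double mutant as1-1 tfl2-1, the single mutants tfl2-1 and as1-1, and the wild type (WT). AS1 is a MYB-type regulator that keeps meristem genes of the KNOX class off in developing leaves, and TFL2 (also known as LHP1) is a chromodomain protein that works with the Polycomb machinery of gene silencing. The labels gave neither the lesion of each allele nor separate cultures for the replicates, so the p-values measure the spread between these samples, which may be technical.

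Across the arrays, 67.1% to 72.5% of the probes were well above background, and no spot was saturated. The array slide followed the TFL2 state, since slide 1 held the WT and as1-1 arrays and slide 2 the tfl2-1 and double mutant arrays. The as1-1 effect was therefore measured within a slide in both backgrounds, and for any comparison of a group with TFL2 against a group without it, slide and mutation cannot be told apart. AS1 mRNA was lower in as1-1 than in WT by a log2 difference of -0.49, and its log2 difference between the double mutant and WT was 0.02, while TFL2 mRNA differed by -1.08 in tfl2-1 and by -0.73 in the double mutant. Of marker genes, 10 of 10 for leaf photosynthesis, 6 of 8 for roots and 2 of 8 for root hairs were measured above background. Here that means on both arrays of at least 1 genotype. The root marker WOX5 was below background in tfl2-1 and the double mutant, and NRT2.1 in tfl2-1. Of the root hair markers, COBL9 was below background in WT and the double mutant, and ADF8 in tfl2-1. Of pollen markers, 4 of 4 were not among the genes tested. A listed gene was not tested if no probe matched its locus, or if no matched probe passed this filter. These 2 cases were not told apart. In whole seedlings, fewer cells of a type and less RNA per cell cannot be told apart.

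Signals below are scaled intensities, which are processed spot signals brought to the same 75th percentile on every array. They can be compared between arrays for 1 gene, not between genes. Log2 differences are given ± the standard error (SE) of 1 linear model over the 8 arrays, with n = 2 arrays per genotype.

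The label of a rise in as1-1 held for 7 of the 10 genes, for which both as1-1 arrays lay above both WT arrays, as they did in 24.2% of all genes tested. It did not hold for AGP2, AGP3 and AGP14. In 6 genes (AGP1, AGP4, AGP7, AGP9, AGP10 and AGP12) both as1-1 arrays lay above all 6 other arrays, an arrangement found in 9.26% of all genes tested. By limma at an adjusted p of 0.05, 5 of the 10 were higher in as1-1 than in WT and 1 was lower (AGP3, below background in both), and the median log2 difference was 0.26. Over all genes tested, 19.2% passed, 7.09% higher and 12.1% lower, with a median of -0.04. These shares stand beside counts that the choice of the genes fixed.

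**Figure D1:**
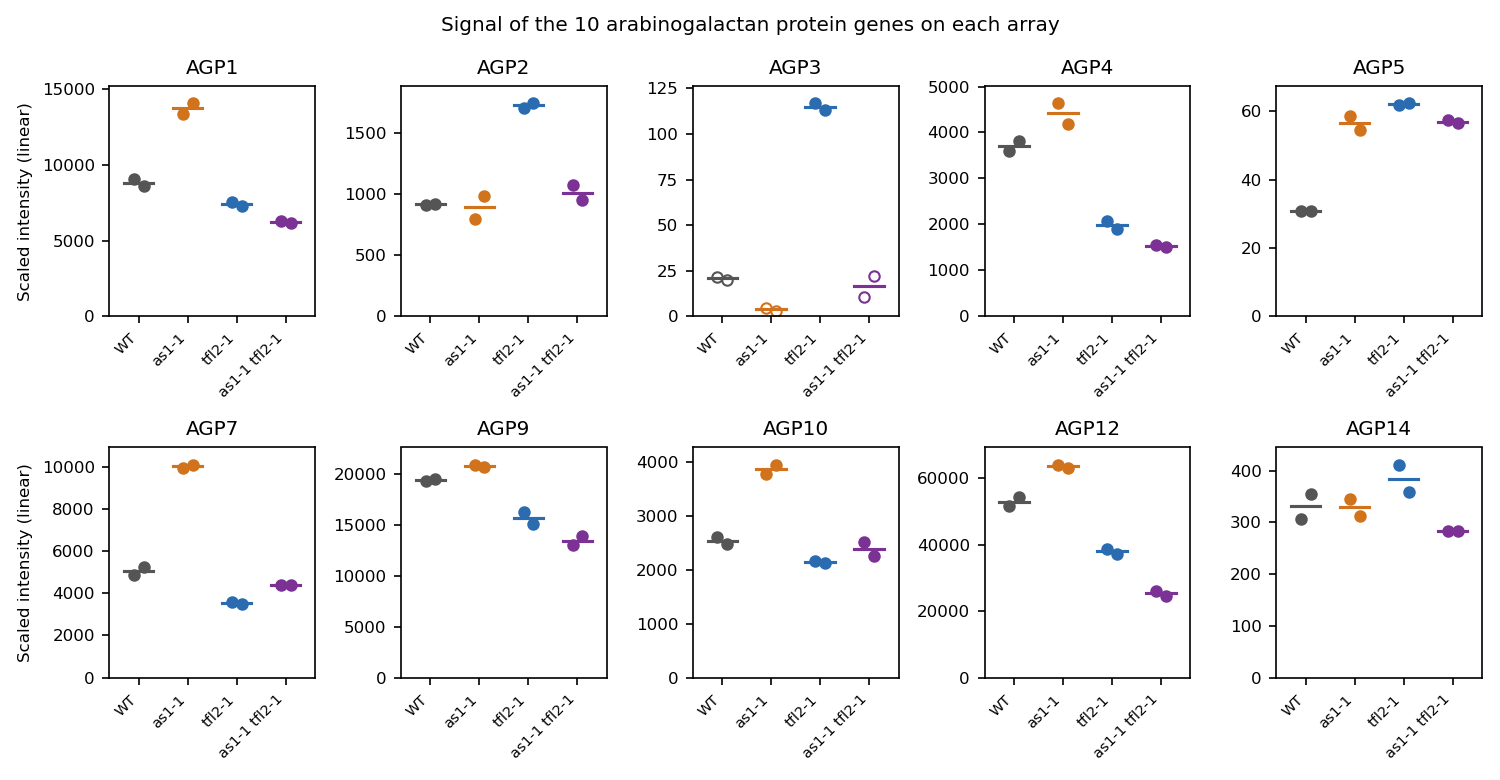
Scaled intensity (linear axis from 0) of each of the 10 arabinogalactan protein genes on each array, by genotype. Dots are single arrays, lines are the mean of the 2 arrays, and open dots mark genotypes in which not both arrays were well above background. The as1-1 dots are the highest in AGP1, AGP4, AGP7, AGP9, AGP10 and AGP12, and the tfl2-1 dots are the highest in AGP2, AGP3, AGP5 and AGP14.

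Among the classical AGPs, AGP7 (AT5G65390) had the highest log2 difference of the 10 between as1-1 and WT. Its scaled intensity was 4860 and 5230 in WT, 9960 and 10100 in as1-1, 3600 and 3500 in tfl2-1, and 4380 and 4370 in the double mutant. The as1-1 arrays stood above all others, and the double mutant lay above tfl2-1 but below WT, with no overlap between any 2 genotypes. The as1-1 effect was 0.99 ± 0.051 on the log2 scale with TFL2 (1.99-fold) and 0.30 ± 0.051 without it (1.23-fold), which makes a difference of -0.69 between the effects.

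AGP1 (AT5G64310) is a classical AGP found in many organs. The arrays read 9060 and 8580 in WT, 13400 and 14100 in as1-1, 7580 and 7280 in tfl2-1, and 6310 and 6180 in the double mutant. The groups did not overlap, and the double mutant was the lowest of the 4. The as1-1 effect turned from 0.64 ± 0.054 with TFL2 to -0.25 ± 0.054 without it, a difference of -0.89. Thus the same mutation went with a 1.56-fold higher signal in one background and a 1.19-fold lower signal in the other.

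AGP10 (AT4G09030), another classical member, had scaled intensities of 2600 and 2480 in WT and 3770 and 3950 in as1-1. The values were 2170 and 2120 in tfl2-1 and 2520 and 2260 in the double mutant. Like AGP7, it was highest in as1-1 and stayed above tfl2-1 in the double mutant, where 1 of the 2 arrays fell within the range of WT. The log2 as1-1 effect was 0.61 ± 0.067 with TFL2 and 0.15 ± 0.067 without it. A further AGP10 probe gave 0.76 and 0.09 for the same effects.

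AGP4 (AT5G10430), also named JAGGER, is known from the pistil, where it helps to prevent the attraction of more than one pollen tube. Scaled intensities were 3590 and 3810 in WT, 4640 and 4190 in as1-1, 2070 and 1890 in tfl2-1, and 1540 and 1500 in the double mutant. All 4 genotypes were apart, with as1-1 on top and the double mutant at the bottom. With as1-1 the log2 change was 0.25 ± 0.074 with TFL2 and -0.38 ± 0.074 without it. The probes disagreed in size: a second AGP4 probe gave 0.79 and -0.44.

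AGP9 (AT2G14890) is a classical AGP measured by 5 probes. On the probe with the highest mean its scaled intensity was 19300 and 19500 in WT, 20900 and 20700 in as1-1, 16200 and 15100 in tfl2-1, and 13000 and 13900 in the double mutant. The order was the same as for AGP1 and AGP4, but the gap between as1-1 and WT was narrow, at 0.10 ± 0.057 with TFL2 against -0.22 ± 0.057 without it. The 5 AGP9 probes disagreed. Over them the as1-1 effect with TFL2 ran from 0.10 to 0.66 and the difference between the 2 effects from -1.07 to -0.23, while the effect without TFL2 was -0.49 to -0.22 on 4 probes and 0.22 on the fifth.

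The AG peptide AGP12 (AT3G13520) followed the same order. Its scaled intensity was 51500 and 54400 in WT, 64100 and 63000 in as1-1, 38800 and 37200 in tfl2-1, and 26100 and 24700 in the double mutant. The groups did not overlap, and the double mutant was 2.08-fold below WT. For AGP12 the as1-1 effect was 0.27 ± 0.055 with TFL2 and -0.58 ± 0.055 without it. A second probe gave 0.19 and -0.46. Its as1-1 call was lost in 5 of 16 other settings, with log2 differences from 0.23 to 0.30, among them those without WT replicate 1 and without either as1-1 array.

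AGP5 (AT1G35230), a classical AGP, differed from these 6 in tfl2-1. The signal was 30.8 and 30.7 in WT, 58.5 and 54.4 in as1-1, 61.7 and 62.4 in tfl2-1, and 57.3 and 56.5 in the double mutant. WT was the low group, and the 3 mutants lay close together. The as1-1 effect was 0.88 ± 0.050 with TFL2 and -0.12 ± 0.050 without it, and the double mutant differed from as1-1 by 0.01. This dim signal depended on background handling: with normexp background correction the as1-1 effect with TFL2 was 0.23 and missed the threshold.

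AGP2, AGP3 and AGP14 showed no rise in as1-1. AGP2 (AT2G22470), a classical AGP, had scaled intensities of 913 and 922 in WT, 802 and 984 in as1-1, 1710 and 1750 in tfl2-1, and 1080 and 950 in the double mutant. The as1-1 arrays straddled those of WT, and tfl2-1 alone stood apart. Its as1-1 effect was -0.05 ± 0.11 with TFL2 and -0.77 ± 0.11 without it.

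AGP3 (AT4G40090), likewise classical, was at the limit of the array. Its scaled intensity was 21.4 and 20.0 in WT, 4.56 and 3 in as1-1, 117 and 113 in tfl2-1, and 10.4 and 22.3 in the double mutant. It was not well above background on any WT or as1-1 array, and was on both tfl2-1 arrays and 1 of the 2 double mutant arrays. No fold is given between as1-1 and WT for that reason. Without TFL2 the log2 as1-1 effect, resting on that 1 array and 1 below background, was -2.92 and ran from -3.47 to -1.13 over the other settings.

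AGP14 (AT5G56540) encodes an AG peptide known from root hairs, whose length is altered in its mutants. Its arrays read 306 and 356 in WT, 345 and 313 in as1-1, 412 and 358 in tfl2-1, and 283 and 283 in the double mutant. WT and as1-1 overlapped, and the double mutant was the lowest group. The as1-1 effect was -0.01 ± 0.10 with TFL2 and -0.44 ± 0.10 without it. Of 8 root hair markers, 6 were not among the genes tested, and the other 2 did not pass the test in any comparison.

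Set side by side, the as1-1 effect was lower without TFL2 than with it in all 9 genes above background in the groups compared. The differences lay between -1 (AGP5, whose dim signal gave -1.05 to -0.37 over 15 other settings) and -0.31 (AGP9). The genes were chosen for this difference, so its count and median only restate the choice. Of the 10, 8 passed limma's threshold on the lower side, with a median of -0.66, and of all genes 9.67% did (20.3% in either direction), with a median of 0.03. Over 15 other settings the threshold was missed in 12 for AGP9, 7 for AGP10 and 6 for AGP2, most of them fits that left out 1 array, with values of -0.56 to -0.24, -0.56 to -0.37 and -0.87 to -0.58. The way the difference arose was not uniform. In AGP7 and AGP10 the as1-1 arrays were higher than their controls in both backgrounds, by less without TFL2. In AGP1, AGP4, AGP12 and the brightest probe of AGP9 they were higher with TFL2 and lower without it, and in AGP5 the higher signal with TFL2 went with nearly level signals without it. In AGP2 and AGP14 the as1-1 effect was near 0 with TFL2 and negative without it. Without TFL2, 6 of the 9 genes other than AGP3 were lower and 1 higher past the threshold. Of all genes 18.0% and 13.5% were (31.5% in all), and the choice of the genes also touches the counts. AGP3 was left out here because it passed the filter on dim probes through tfl2-1 alone. Of 16 other settings the threshold was missed in 12 for AGP9, 6 for AGP1, 4 for AGP14 and 2 for AGP4, among them that without tfl2-1 replicate 1 for each of these genes. These comparisons share arrays with each other and with those that chose the genes.

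**Figure D2:**
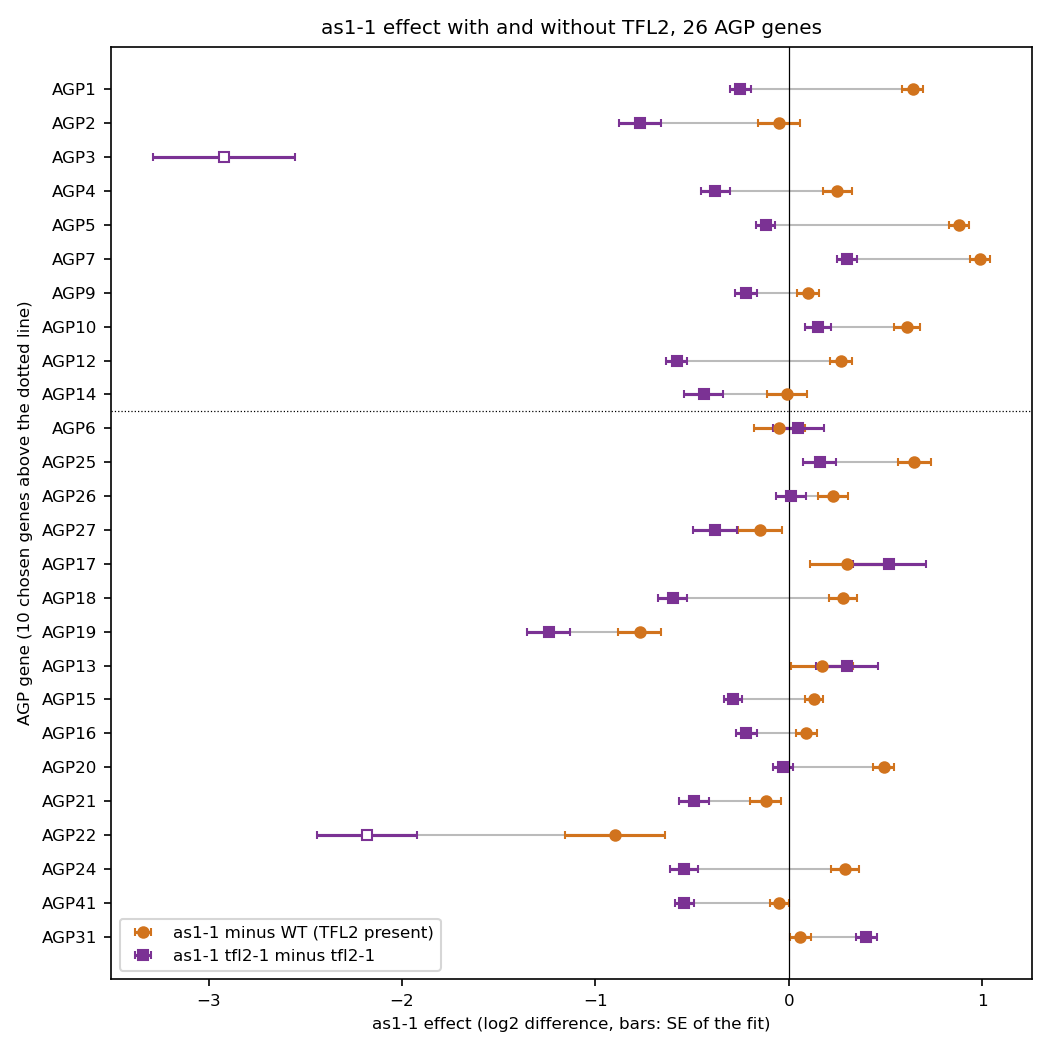
Log2 difference made by as1-1 in plants with TFL2 (circles, as1-1 minus WT) and in plants without it (squares, double mutant minus tfl2-1) for the 26 AGP genes tested, with the SE of the fit as bars. Open squares mark double mutants with fewer than 2 arrays above background, and the AGP3 circle is left out because neither genotype was above background. In the 10 chosen genes shown above the dotted line the square lies left of the circle wherever both are drawn.

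The double mutant was also set against as1-1, where slide and TFL2 state cannot be told apart. The choice of the genes used this comparison, so its counts are a description with no test. The double mutant was lower past the threshold in 6 of the 10 genes and higher in 1, against 29.0% and 32.5% of all genes (61.5% in all). Its log2 differences were -1.54 in AGP4, -1.32 in AGP12, -1.20 in AGP7, -1.14 in AGP1, -0.69 in AGP10 and -0.63 in AGP9. Values for AGP2, AGP5 and AGP14 lay between -0.21 and 0.19. AGP3 was the 1 gene higher, with as1-1 below background and 1 of the 2 double mutant arrays above it, so no fold is given. Its log2 difference was 2.04 and ran from 0.21 to 2.59 over the settings. The comparison with WT shares arrays with those that chose the genes, so it is a description too. Against WT, the double mutant was lower in 5 genes and higher in 1 (AGP5, by 0.89), beside 32.9% and 30.8% of all genes (63.7% in all). Its signal for AGP4 was 2.43-fold and that for AGP9 1.44-fold below WT on the brightest probes. The second AGP4 probe gave -0.71 on the log2 scale in place of -1.28, and the 5 AGP9 probes ran from -0.84 to 0.05.

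The tfl2-1 mutation on its own split the 10 genes. The comparison of tfl2-1 with WT did not itself serve to choose them. It shares the WT and the tfl2-1 arrays with comparisons that did, so its calls and p-values are not independent of the choice. By limma, with Benjamini-Hochberg adjustment over the 22668 genes, 6 fell, AGP2 and AGP5 rose, and AGP14 did not pass the threshold (0.22 ± 0.10, adjusted p = 0.117). AGP3 is given without a test, since it passed the filter on dim probes through tfl2-1 alone. Of all genes tested, 54.7% passed, 28.4% falling and 26.2% rising, so that a call in this comparison is common. For every gene named, slide and mutation cannot be told apart.

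AGP2, AGP3 and AGP5 had higher signals in tfl2-1 than in WT. For AGP3, whose WT arrays were below background, the processed signals gave 5.55-fold. This fold is taken against its own dim WT signal, so it is not a lower bound. The log2 difference was 2.47 with these signals and 0.86 with normexp. AGP5 was 2.02-fold higher (1.01 ± 0.050, adjusted p = 2.82e-05), with 0.38 under normexp. AGP2 was 1.88-fold higher (0.91 ± 0.11, adjusted p = 0.00081). The double mutant differed from WT by 0.14 in AGP2 and by 0.89 in AGP5, and in AGP3 its arrays straddled those of WT.

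The 6 genes that fell in tfl2-1 were the same 6 whose as1-1 arrays exceeded all others; both statements use the tfl2-1 and WT arrays and are not independent. AGP4 fell by 0.90 ± 0.074 on the log2 scale (1.87-fold, adjusted p = 0.000189), with -0.28 on its second probe. AGP7 fell by 0.50 ± 0.051 (adjusted p = 0.000446) and AGP12 by 0.48 ± 0.055 (adjusted p = 0.000727). The other falls were smaller, at -0.31 ± 0.057 for AGP9 (adjusted p = 0.00468), -0.25 ± 0.054 for AGP1 (adjusted p = 0.0097) and -0.24 ± 0.067 for AGP10 (adjusted p = 0.024). AGP1 missed the threshold without tfl2-1 replicate 2 (adjusted p = 0.0553, range over settings 0.00733 to 0.0553). AGP10 missed it in 5 of 16 settings, among them those without WT replicate 1 and without either tfl2-1 array. The second AGP10 probe gave -0.03, and the probes of AGP9 disagreed in sign, from -0.35 to 0.36.

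**Figure D3:**
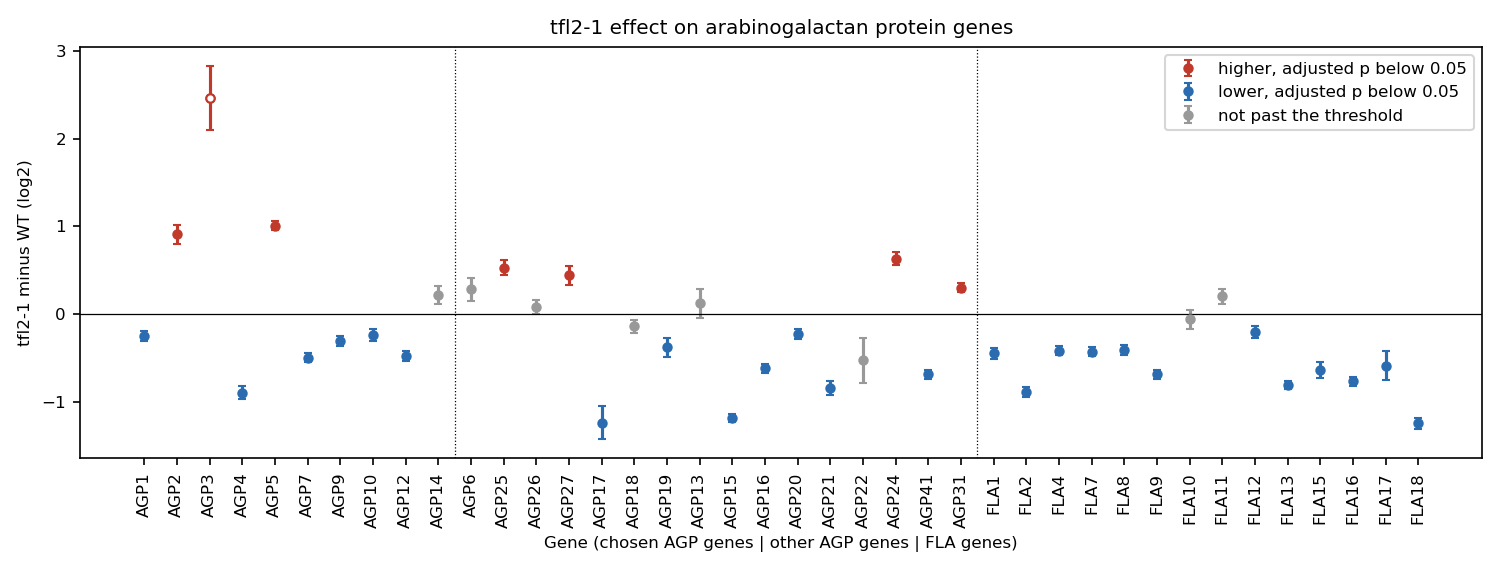
Log2 difference between tfl2-1 and WT, with the SE of the fit, for the 10 chosen AGP genes, the other 16 AGP genes tested and 14 FLA genes, separated by dotted lines. Red marks genes higher and blue genes lower at an adjusted p of 0.05, grey the rest, and the open dot (AGP3) a gene below background in WT that was kept through tfl2-1 alone. AGP3, AGP5 and AGP2 are the highest points, and 12 of the 14 FLA genes are blue.

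The rest of the AGP family was examined for the same comparisons. Of the other 20 AGP genes 16 were tested. AGP11, AGP23, AGP30 and AGP40 were not, for want of a matched probe above background on both arrays of any genotype. In as1-1 against WT, 4 of the 16 rose and 1 fell (median 0.11 on the log2 scale), beside 7.09% and 12.1% of all genes (median -0.04). AGP25, a classical AGP, rose by 0.65 ± 0.085 (adjusted p = 0.00459), with scaled intensities of 151 and 140 in WT and 214 and 244 in as1-1. The AG peptide AGP20 rose by 0.49 ± 0.054 (adjusted p = 0.00249), from 2310 and 2330 to 3310 and 3220. In both genes the as1-1 arrays were clear of WT.

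AGP18, a lysine-rich AGP known for its part in the making of the female gametophyte, and the AG peptide AGP24 rose by 0.28 ± 0.074 (adjusted p = 0.0458) and 0.29 ± 0.072 (adjusted p = 0.0415). Both stood close to the threshold and missed it in 10 and 8 of 15 other settings. AGP19, the lysine-rich AGP linked to cell division and expansion, fell by 0.77 ± 0.11 (adjusted p = 0.00664), its signal being 373 and 346 in WT and 210 and 211 in as1-1. AGP6, a pollen AGP (-0.05), AGP26 (0.23), AGP27 (-0.15), AGP17 (0.30), AGP13 (0.17), AGP15 (0.13), AGP16 (0.09), AGP21 (-0.12), AGP22 (-0.90), AGP41 (-0.05) and AGP31 (0.06) did not pass.

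For the difference of the as1-1 effect between backgrounds, 7 of the 16 passed on the lower side and 1 on the higher, with a median of -0.39, beside 9.67% and 10.6% of all genes. AGP18 had the largest of these (-0.89 ± 0.11, adjusted p = 0.00363): its signal was 521 and 515 in tfl2-1 and 344 and 339 in the double mutant. AGP24 followed (-0.83 ± 0.10, adjusted p = 0.00415), then AGP20 (-0.52 ± 0.076, adjusted p = 0.00731), AGP41 (-0.50 ± 0.069, adjusted p = 0.00629), AGP25 (-0.49 ± 0.12, adjusted p = 0.0366), AGP15 (-0.41 ± 0.066, adjusted p = 0.0102) and AGP16 (-0.31 ± 0.076, adjusted p = 0.0353). AGP31, a chimeric AGP of vascular tissue, went the other way (0.33 ± 0.077, adjusted p = 0.0306), with 26800 and 26000 in WT, 27400 and 27800 in as1-1, 33800 and 31300 in tfl2-1, and 42300 and 43400 in the double mutant. The calls of AGP25, AGP16 and AGP31 were lost in 10, 11 and 10 of 15 other settings, including most of those that left out 1 array.

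In tfl2-1 against WT, 7 of the 16 fell and 4 rose, where 28.4% and 26.2% of all genes did, so that the rises are near the common share. The largest falls were those of AGP17 (-1.24 ± 0.19, adjusted p = 0.0024), a lysine-rich AGP needed for efficient Agrobacterium transformation of roots, and of the AG peptides AGP15 (-1.19 ± 0.047, adjusted p = 1.32e-05) and AGP21 (-0.85 ± 0.079, adjusted p = 0.000316). AGP41 (-0.69), AGP16 (-0.62), AGP19 (-0.38) and AGP20 (-0.23) also fell. AGP24 (0.63 ± 0.072, adjusted p = 0.000714), AGP25 (0.53 ± 0.085, adjusted p = 0.00279), AGP27 (0.44) and AGP31 (0.30) rose. The calls of AGP19, AGP27 and AGP20 were lost in 5, 3 and 2 of 15 other settings, among them those without tfl2-1 replicate 2. AGP22 was below background in the double mutant, where it was at least 3.04-fold lower than in WT by the processed signals (adjusted p = 0.000232). That log2 difference was -2.70 and ran from -3 to -0.76 over the other settings.

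Fasciclin-like AGPs (FLAs) carry AGP-type regions beside adhesion-like fasciclin domains. Of 21 FLA loci 15 were tested, 14 of them with an FLA symbol. In as1-1 against WT, FLA9 rose (0.49 ± 0.048, adjusted p = 0.00161), FLA12, known from secondary walls of stems, fell (-0.46 ± 0.069, adjusted p = 0.0075), FLA15 fell (-0.41 ± 0.091, adjusted p = 0.0285), and 12 did not pass. The FLA15 call was lost in 5 of 15 other settings, among them those without WT replicate 2 and without either as1-1 array. FLA9 had the same order of genotypes as AGP12: its signal was 29300 and 28900 in WT, 40000 and 41700 in as1-1, 17900 and 18200 in tfl2-1, and 8540 and 8910 in the double mutant. The groups did not overlap, and the as1-1 effect differed by -1.54 ± 0.067 between the backgrounds (adjusted p = 0.000116).

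FLA13 was 38200 and 39700 in WT, 41400 and 42200 in as1-1, 22700 and 21600 in tfl2-1, and 13400 and 13700 in the double mutant. Its as1-1 effect differed by -0.81 ± 0.069 (adjusted p = 0.00116). In all, the as1-1 effect was lower without TFL2 in 7 of 15 FLA genes past the threshold, the others being FLA8 (-0.57), FLA7 (-0.55), FLA12 (-0.45), FLA2 (-0.34) and FLA18 (-0.34), where 9.67% of all genes passed on that side. The calls of FLA2, FLA18 and FLA12 were lost in 11, 10 and 9 of 15 other settings, including most of those that left out 1 array. In tfl2-1 against WT, 12 of 15 fell, beside 28.4% of all genes, led by FLA18 (-1.25 ± 0.061, adjusted p = 2.69e-05), FLA2 (-0.89), FLA13 (-0.81) and FLA16 (-0.77). The FLA12 and FLA17 calls there were lost in 9 and 3 of 15 other settings, among them that without tfl2-1 replicate 2.

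Of the enzymes that build the glycan chains of AGPs, 2 passed the test in as1-1. Of 22 loci listed for AGP glycosylation, prolyl hydroxylases and glycosyltransferases among them, 19 were tested. In as1-1 against WT GLCAT14A, a glucuronosyltransferase, fell (-0.30 ± 0.052, adjusted p = 0.0118). AT1G67330, named by locus only, rose (0.29 ± 0.062, adjusted p = 0.0242), and 17 did not pass. Of all genes tested, 19.2% passed in this comparison. The GLCAT14A call was lost without WT replicate 1 and without as1-1 replicate 1. In tfl2-1 against WT, 9 of the 19 fell and 1 rose, beside 28.4% and 26.2% of all genes. FUT4, an AGP fucosyltransferase, fell by 1.72 ± 0.11 (3.30-fold, adjusted p = 6.3e-05), AT1G67330 fell by 0.99, and the glucuronosyltransferases GLCAT14A, GLCAT14B and GLCAT14C fell by 0.56, 0.44 and 0.38. GALT31A, a galactosyltransferase of the side chains, rose by 0.35 ± 0.072 (adjusted p = 0.00802).

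Other gene groups moved alongside. Of 21 measured genes that respond quickly to touch, cold or wounding, 19 were higher and 1 lower in as1-1 than in WT, against 7.09% and 12.1% of all genes, with a median log2 difference of 2.07. For all 21 the as1-1 effect was lower without TFL2 past the threshold, against 9.67% of all genes. The list was chosen with earlier results of these data known. The summed scaled intensity of this list was 35100 and 36800 on the WT arrays, 123000 on each as1-1 array, 24400 and 24500 in tfl2-1, and 16400 and 16300 in the double mutant. The sum had the order of genotypes seen in AGP1, AGP4, AGP9 and AGP12, but not every gene of the list did. In tfl2-1 against WT, 15 of the 21 were lower and 4 higher past the threshold, against 28.4% and 26.2% of all genes. The 22nd gene of the list, TCH3, was not among the genes tested. CBF2 (4.87) and CBF1 (4.03), regulators of the cold response, had the largest log2 differences in as1-1. The part of this response in the AGP values was not tested.

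In tfl2-1, where 6 of the AGP genes fell, 9 of 10 leaf photosynthesis markers fell too, where 28.4% of all genes did, with a median of -0.42. Their summed scaled intensity was 2900000 and 3070000 in WT, 2730000 and 2800000 in as1-1, 2260000 and 2410000 in tfl2-1, and 1940000 and 2090000 in the double mutant. All 5 markers of xylem walls rose in tfl2-1, where 26.2% of all genes did, with a median of 0.55 and sums of 3220 and 3410 in WT, 2850 and 2880 in as1-1, 4690 and 4910 in tfl2-1, and 2990 and 3010 in the double mutant. The 6 measured root markers summed to 18000 and 18700 in WT and 18300 and 18500 in as1-1. The sums were 15300 on both tfl2-1 arrays and 12300 and 12600 in the double mutant. PYK10, the brightest of the 6, led these sums, and the markers did not move together. In tfl2-1 against WT 3 were lower and 0 higher past the threshold (median -0.12), beside 28.4% and 26.2% of all genes. In the double mutant against WT 2 were lower and 2 higher (median 0.07), beside 32.9% and 30.8%. PLT1 and PLT2 were not among the genes tested. The part of leaf, xylem and root tissue in the AGP values was not tested.

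How alike the 10 genes were among themselves was described by Pearson's r over the 8 arrays, which are pairs of 4 genotypes. AGP1, AGP4, AGP7, AGP9, AGP10 and AGP12 had pairwise r of 0.70 to 0.99. Within them AGP4, AGP9 and AGP12 had r of 0.98 to 0.99 with each other, and AGP7 with AGP10 had 0.99. AGP2 had r below 0 with each of these 6 (-0.68 to -0.34) but 0.82 with AGP3, 0.57 with AGP14 and 0.47 with AGP5. AGP5 ranged from -0.47 (AGP4) to 0.03 (AGP10) with the same 6, and was 0.09 with AGP3 and 0.10 with AGP14. With the mean of the other members without AGP3, r was 0.975 for AGP1, 0.256 for AGP14, -0.185 for AGP5 and -0.441 for AGP2.

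Genes outside the family were ranked by r with the mean profile of the 10, among 3023 genes above background on all 8 arrays whose genotype means span at least 1 on the log2 scale. The 5 highest were SWEET4 (0.967), a sugar transporter, AT4G34320 (0.965), AT4G39670 (0.963), AT1G30280 (0.954) and AT1G75960 (0.948). That mean is led by the wide swings of AGP3, whose own r with the other members was -0.552. Leaving out AGP3, a choice made after seeing the data, gave AT2G41640 (0.995), BCS1 (0.993) and AT1G78230 (0.990) among the first 5, the other two having no locus match. Of these, AT2G41640 differed between as1-1 and WT by 2.04 and between the double mutant and WT by -1.27, and BCS1 by 1.40 and -1.49.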

How the data were processed

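The 8 scanner files hold a fluorescence intensity for each spot. Per the file headers, the authors' Agilent Feature Extraction (version 10.7, per the submitters' processing notes) made this intensity: it subtracted background and removed spatial trends, with no scaling between arrays. A table of log2 values per probe was also deposited by the authors; how it was made is not given in the sources used here, so it served only as an alternative.

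Control spots and 67 outlier spots were left out, spots of a probe were averaged, and each array's 75th percentile was subtracted from log2(processed signal). Probes well above background on both arrays of at least 1 genotype were kept (30467 of 43603), and a gene stood for its brightest kept probe, giving 22668 genes. Accessions of 34285 probes (78.6%) matched a locus of RefSeq assembly TAIR10.1; the headers name an older build, so no coordinates are given. A gene below background on both arrays of 1 group has a fold bounded against the lowest signal above background. Where its own signal was higher than that, its own signal was used. One limma model (3.58.1, R 4.3.3) with a mean per genotype was fitted to the 8 arrays (4 residual and 2.06 prior degrees of freedom; two-sided, Benjamini-Hochberg over all genes, threshold 0.05) and tested on simulated data. Alternatives were normexp (offset 50) on median signals, quantile normalization, the deposited table, no filter, a filter on all 8 arrays, probe means, a replicate block, fits of 4 arrays and leaving out each array.

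Members and gene lists were chosen with earlier results of these data known. All 10 members and every AGP gene of the lists are named, with up to 4 called genes of each other list by size of difference; FLA2, FLA12 and FLA18 in the difference of the as1-1 effects, and GLCAT14B, GLCAT14C and GALT31A in tfl2-1, were named after their values were seen. The 5 genes most like the mean profile are also named. Figures were drawn with matplotlib 3.10.9.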

Additional observations from a re-analysis of the deposited data

Results flagged for a closer look

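Each gene here had an as1-1 effect that differed between plants without and with TFL2, by the interaction term of the limma model at an adjusted p of 0.05. The values are the log2 as1-1 effect without TFL2 minus that with it. For the members, chosen for such a difference, it is a description: AGP1 had -0.89, AGP2 -0.73, AGP4 -0.63, AGP5 -1, AGP7 -0.69, AGP9 -0.31, AGP10 -0.45 and AGP12 -0.85. Other AGP genes were AGP15 with -0.41, AGP16 with -0.31, AGP18 with -0.89, AGP20 with -0.52, AGP24 with -0.83, AGP25 with -0.49 and AGP41 with -0.50, and AGP31 with 0.33 in the opposite direction. FLA genes had -1.54 (FLA9), -0.81 (FLA13), -0.57 (FLA8), -0.55 (FLA7), -0.45 (FLA12), -0.34 (FLA2) and -0.34 (FLA18). The glycosylation genes GALT31A and GLCAT14A had 0.53 and 0.32.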

How the results depend on the processing

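Of the other settings' log2 differences for single members, 862 kept their direction and side of the threshold. A change of direction by less than the SE, between values that did not pass, counted as kept. Another 67 missed a threshold that the main values passed, 8 newly passed one and 7 moved otherwise. No called value changed sign. The member counts below include AGP3 wherever it was measured. Its calls in tfl2-1 against WT and in the double mutant against tfl2-1 carry no test, since it passed the filter on dim probes through tfl2-1 alone. Without a filter on dim probes, which tests 34285 genes, 5 members passed in the double mutant against tfl2-1 and 5 in the difference between the as1-1 effects, against 8 and 8, and 1 glycosylation gene in as1-1 against WT, where 2 had passed; the cause of these changes was not tested. FLA genes passing in as1-1 against WT were 5 with normexp and 5 with the filter on all 8 arrays, against 3. Leaving out 1 array at a time gave 5 to 6 members in as1-1 against WT, 4 to 8 in the double mutant against tfl2-1, 5 to 7 in the difference, 7 to 9 in tfl2-1 against WT, 5 to 7 in the double mutant against WT and 7 to 8 against as1-1. For all AGP genes it gave 8 to 11 (as1-1) and 15 to 20 (tfl2-1), for FLA genes 2 to 3 and 10 to 11, and for glycosylation genes 0 to 2 and 8 to 10. The 4 members passing in the double mutant against tfl2-1 came without tfl2-1 replicate 1.

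Arrays with the same replicate number did not deviate together (r of -0.05 to 0.05 between deviations), so the numbers pair nothing; with the replicate block 6 members passed in as1-1 against WT, 7 in the double mutant against tfl2-1, 7 in the difference, 9 in tfl2-1 against WT, 6 in the double mutant against WT and 7 against as1-1. Over all genes, calls in as1-1 against WT numbered 4353, with 2024 unfiltered, 2667 in the fit of 4 arrays, 2423 when WT replicate 1 was left out, and 2262 or 2392 when as1-1 replicate 1 or 2 was. AGP3 and AGP22, below background in some genotypes, and dim AGP5 are limited by signal over background.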
